A study of Mus musculus with 9 samples.

Results

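The nuclear-encoded genes of oxidative phosphorylation were examined in sorted lung cells of mice. They were chosen by symbol: every gene of the count table whose name begins with Nduf followed by a, b, c, s or v, with Cox and a digit of 4 to 8, with Atp5 or with Uqcr, together with Sdha, Sdhb, Sdhc and Sdhd. Ndufa4l2 and Cox4i2, isoforms known for their response to low oxygen, were left out of the set. The rule found 87 of the 19348 genes in the table. Of these, 36 were grouped with complex I, 4 with complex II, 8 with complex III, 17 with complex IV and 15 with complex V. The complex IV group includes Cox7a2l, classed as a supercomplex factor and not as a subunit. A further 4 (Ndufaf1 to Ndufaf4) are assembly factors of complex I, and 3 (Atp5s, Atp5sl and Cox4nb) carry a matching symbol but are not subunits of a complex.

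Read counts came from 9 RNA-seq libraries of C57BL/6J mice, all of the genotype Col1_GFP;Foxf1_tdTomato, in which GFP reports type 1 collagen and tdTomato reports the transcription factor Foxf1. DBL cells carried both reporters (replicates 1, 3 and 4), TDonly cells the Foxf1 reporter alone (replicates 1, 2 and 3) and ColGFP cells the collagen reporter alone (replicates 1, 2 and 3). The labels do not say how old the mice were, how the gates were set or how many animals stand behind a library, so p-values measure the spread between libraries, which may be technical. A protocol for whole frozen lungs is given in the labels, and how it applies to sorted cells is not stated.

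Total counts were 17820969 to 26147475 per library, and 17116 to 17753 genes had a count. Levels are given as CPM, the share of a library's reads scaled up to a common library size, with the size adjusted by TMM. Foxf1a, the gene that tdTomato reports, had 87.3 to 113 CPM in DBL and 229 to 279 CPM in TDonly libraries, against 54.5 to 62.5 CPM in ColGFP libraries. Col1a1 had 9539 to 13224 CPM in DBL, 373 to 1566 CPM in TDonly and 4939 to 9593 CPM in ColGFP libraries. Of 18 endothelial marker genes, 18 passed the test as higher in TDonly than in ColGFP and 18 as lower in DBL than in TDonly, and of 14 fibroblast marker genes, 14 passed as lower in TDonly than in ColGFP. The replicate 1 libraries carry sequencing core numbers from a lower run and the other 6 from a higher one; no label calls this a batch. TDonly replicate 1 had the least collagen RNA. ColGFP replicate 1 stood apart in the sum of 19 epithelial marker genes, with 13041 CPM against 6450 and 4348 CPM in the other ColGFP libraries. This sum was 7994 to 8797 CPM in DBL and 12490 to 16369 CPM in TDonly libraries. Of these genes, 11 passed as higher in TDonly than in ColGFP and 0 as lower, against 21.6% and 24% of all genes. A sum of 19 leukocyte marker genes was 1829 to 1907 CPM in DBL, 3259 to 3741 CPM in TDonly and 1212 to 2906 CPM in ColGFP libraries. Of these, 4 passed as higher in TDonly than in ColGFP and 0 as lower.

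Oxidative phosphorylation takes place in the inner mitochondrial membrane. Complexes I and II pass electrons from NADH and succinate to ubiquinone, complex III passes them to cytochrome c and complex IV to oxygen; complexes I, III and IV pump protons, and complex V, the ATP synthase, uses the gradient to make ATP. Most subunits are encoded in the nucleus and a small number in mitochondrial DNA, and the mitochondrially encoded genes are not analysed here. Several subunits of complex IV have an isoform found mainly in heart and skeletal muscle or in testis beside a widely expressed one. The factors NRF1, GABP (an ETS factor) and YY1 are known activators of many of the nuclear genes.

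Of the 87 members, 66 averaged 10 CPM or more over the 9 libraries, 3 of them over 100 CPM, and 4 averaged under 1 CPM. The tested members had a median level of 22.3 CPM, against 16.7 CPM over the 15550 genes that passed the filter on low counts. Per kilobase of transcript the medians were 27.3 CPM per kb for the members and 6.38 CPM per kb over all tested genes, and the members' transcripts are short. Complex V had the highest median, 57.7 CPM per kb, followed by complex III with 35.0, complex IV with 31.6, complex II with 29.3 and complex I with 19.3 CPM per kb. Atp5b, the catalytic beta subunit of the ATP synthase, led the set with 171 CPM per kb, ahead of the alpha subunit Atp5a1 with 119 CPM per kb. Cox4i1, the widely expressed isoform of a complex IV subunit, had 89.9 CPM per kb, Uqcrh, the hinge protein of complex III, 54.6, Ndufa7, an accessory subunit of complex I, 52.4 and Sdha, the flavoprotein of complex II, 38.3 CPM per kb. The 4 assembly factors lay lower, with a median of 3.03 CPM per kb.

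**Figure D1:**
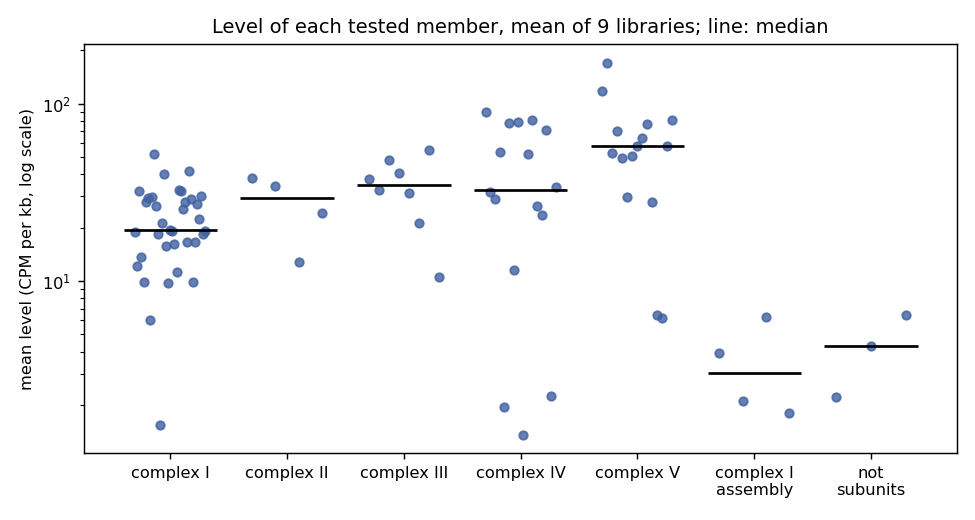
Mean level of each tested member over the 9 libraries, in CPM per kb of transcript on a log scale, grouped by complex; each point is a gene and each line the group's median. Complex V has the highest median (57.7 CPM per kb) and the assembly factors of complex I the lowest (3.03 CPM per kb), and the low points of complex IV are muscle and testis isoforms.

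The filter removed 2 members. Cox7b2, an isoform of the complex IV subunit Cox7b, had 1 count in DBL replicate 3 and 0 in the other libraries. Ndufs5, a complex I subunit with 1 near-identical copy among annotated genes, had 1 count each in DBL replicate 3 and TDonly replicate 2. The remaining 85 were tested. The transcripts of all 87 members have a median length of 745 bases, against 2610 bases over all matched genes. Exons of 24 members overlap another gene, for 21 of them on the opposite strand. The strand setting of the count is not given, so reads of such pairs cannot be told apart. For 11 members, an annotated transcript of another gene has at least 95% identity over at least 50% of the member's transcript. Reads of such copies cannot be told apart where the sequences are the same.

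Summed over the 87 genes, the level was 2781 ± 185 CPM in DBL, 2827 ± 101 CPM in TDonly and 2853 ± 167 CPM in ColGFP libraries (SD, n = 3 each). The ranges overlapped: 2616 to 2981 CPM in DBL, 2744 to 2939 CPM in TDonly and 2720 to 3041 CPM in ColGFP. Complex I summed to 719 ± 57.7 CPM in DBL, 721 ± 27.7 CPM in TDonly and 745 ± 27.0 CPM in ColGFP libraries. Complex V summed to 1075 ± 71.0 CPM in DBL, 1082 ± 34.5 CPM in TDonly and 1097 ± 68.0 CPM in ColGFP libraries. The ranges of both sums overlapped between all populations. Complex II summed to 213 ± 4.02 CPM in DBL, 225 ± 5.33 CPM in TDonly and 225 ± 18.8 CPM in ColGFP libraries, and here the DBL libraries lay below all TDonly libraries. In bulk samples, fewer cells of a type and less RNA per cell cannot be told apart, and CPM says nothing of the amount of RNA in a cell.

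Few members differed between populations. By the quasi-likelihood test of edgeR, with p-values adjusted by Benjamini-Hochberg over all 15550 genes and a threshold of 0.05, 2 of 85 members (2.35%) passed between DBL and ColGFP, both lower in DBL, against 14.5% of all genes tested (8.04% higher, 6.47% lower). Between DBL and TDonly no member passed (0%), against 29.9% of all genes (17.3% higher, 12.6% lower). Between TDonly and ColGFP, 12 members (14.1%) passed, 4 higher and 8 lower in TDonly, against 45.5% of all genes (21.6% higher, 24% lower). Scaling to library totals turned that split to 6 higher and 3 lower, as it moved the median over all genes by 0.15 on the log2 scale. Unadjusted p-values under 0.05 were reached by 9, 7 and 20 of the 85 members in the 3 comparisons in this order. Of all 15550 genes, 4186, 6331 and 8208 reached them. DESeq2 passed 0 higher and 4 lower between DBL and ColGFP, 1 higher and 2 lower between DBL and TDonly, and 5 higher and 10 lower between TDonly and ColGFP; limma-voom passed 0 and 2, 0 and 0, and 3 and 8. In the same order, DESeq2 passed 18.6%, 33.9% and 48.7% of all genes it tested, and limma-voom 15%, 30.6% and 44.6%. Of 1054 tested genes with a transcript under 1 kb, 7.12%, 15.5% and 29.8% passed in edgeR.

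The counts moved when single libraries were left out. Between DBL and ColGFP, 1 member was lower without DBL replicate 1 or ColGFP replicate 2 and none without DBL replicate 3, where 11 had an unadjusted p under 0.05. Between DBL and TDonly, 1 was higher without TDonly replicate 3 or ColGFP replicate 1, and 2 were lower without DBL replicate 1, with 1 lower without TDonly replicate 1 or ColGFP replicate 2. Between TDonly and ColGFP, the number higher was 6 without ColGFP replicate 1. It was 2 without DBL replicate 4, TDonly replicate 2 or ColGFP replicate 3 and 1 without TDonly replicate 3 or ColGFP replicate 2. The number lower was 9 without DBL replicate 1 and 2 without TDonly replicate 2. It was 5 without DBL replicate 3, DBL replicate 4, TDonly replicate 1, TDonly replicate 3 or ColGFP replicate 2. The share of all tested genes that passed moved too. Over all single omissions this share was 9.31% to 17.5% for DBL against ColGFP and 22.1% to 32.4% for DBL against TDonly. For TDonly against ColGFP it was 36.1% to 46.6%, with 38.7% without TDonly replicate 2.

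The sizes of change were small as well. The median log2 fold change of the members was -0.01 for DBL over ColGFP, -0.04 for DBL over TDonly and 0.02 for TDonly over ColGFP; over all tested genes it was -0.00, -0.04 and 0.02. The median absolute log2 fold change was 0.11, 0.09 and 0.19 for the members, against 0.25, 0.35 and 0.49 for all genes. Beyond 2-fold lay 2, 1 and 2 members (2.35%, 1.18% and 2.35%), against 11.9%, 19.9% and 29.3% of all genes, and each of those members is a muscle or testis isoform. Libraries did not overlap for 15.3%, 18.8% and 34.1% of the members, against 33.3%, 47% and 56.1% of all genes. These members also have high counts, so their intervals are narrow. Among genes with a mean of 10 CPM or more, the 95% interval of the fold change lay within 1.5-fold either way for 95.5%, 95.5% and 86.4% of 66 members, against 58.8%, 49.3% and 38.7% of 9326 genes.

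**Figure D2:**
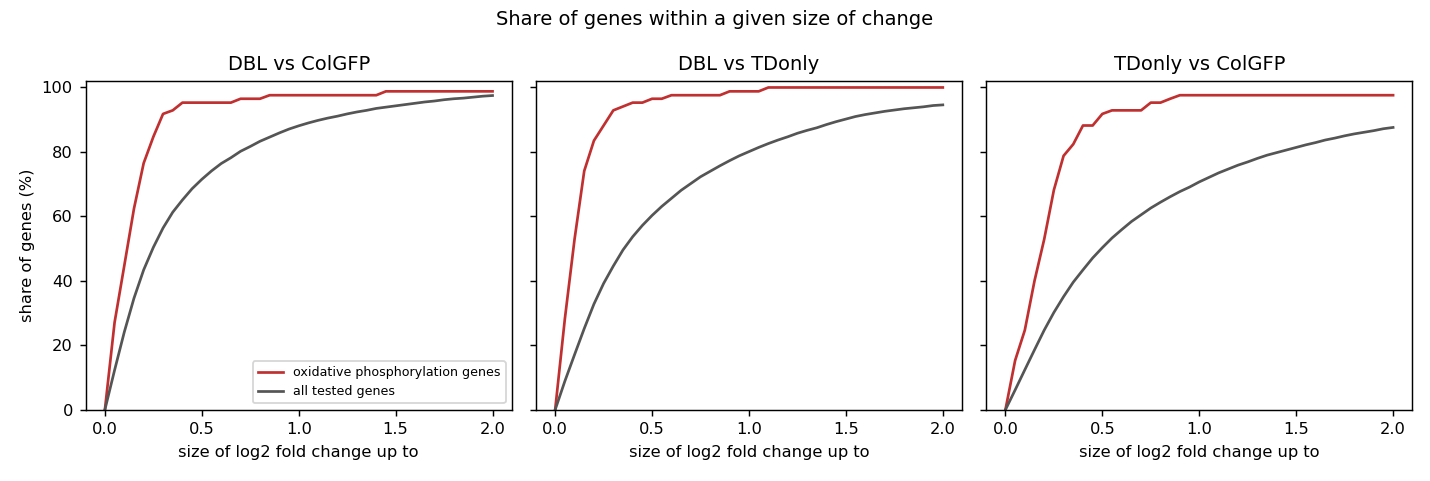
Share of genes, in percent, whose absolute log2 fold change is at most the value on the x axis, for the 85 tested members (red) and all 15550 tested genes (grey) in each comparison. The red curve lies above the grey one in each panel; the median absolute change is 0.19 for members and 0.49 for all genes between TDonly and ColGFP.

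**Figure D3:**
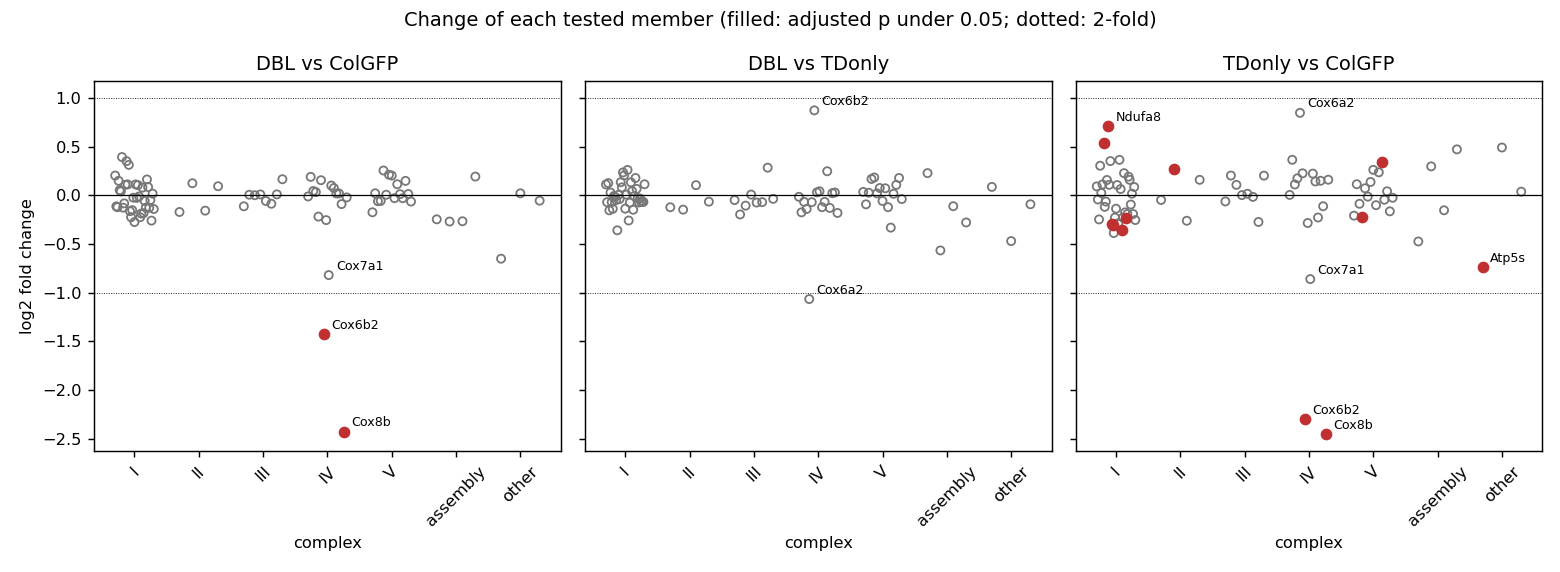
Log2 fold change of each tested member by complex in the 3 comparisons; filled points passed at an adjusted p under 0.05, dotted lines mark 2-fold, and genes beyond 0.7 are named. Most points lie close to 0, and Cox6b2 and Cox8b of complex IV stand lowest in both comparisons with ColGFP.

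The exceptions were isoforms of complex IV. Cox8b, known in rodents as the isoform of heart, skeletal muscle and brown fat, was listed at 0.381, 0.225 and 0.363 CPM in DBL replicates 1, 3 and 4 and at 0.117, 0.240 and 0.615 CPM in TDonly, against 1.57, 1.81 and 1.94 CPM in ColGFP. All 3 ColGFP libraries were above all others, and DBL and TDonly libraries overlapped. The gene lies at chr7:140898945-140900446 on the minus strand (GRCm38, which is mm10). Its log2 fold change was -2.43 ± 0.51 (SE) in DBL over ColGFP, with an adjusted p of 0.0118 in edgeR, and -2.45 ± 0.52 in TDonly over ColGFP, with an adjusted p of 0.00355. Between DBL and TDonly it was 0.03, with a 95% interval of -1.23 to 1.29. Counts behind these levels were low, 3 to 14 per DBL or TDonly library and 30 to 42 per ColGFP library. The DBL comparison lost its call without DBL replicate 3, where the adjusted p was 0.0533.

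Cox6b2, the isoform of complex IV subunit 6B known from testis, was also highest in ColGFP, with higher counts. It had 3.81, 4.60 and 5.17 CPM in DBL, 1.21, 2.84 and 3.39 CPM in TDonly and 11.8, 14.7 and 10.1 CPM in ColGFP libraries. The 3 populations did not overlap, with ColGFP highest and TDonly lowest. The gene lies at chr7:4751792-4753094 on the minus strand. Its log2 fold change was -1.43 ± 0.32 in DBL over ColGFP (adjusted p = 0.0156, edgeR) and -2.30 ± 0.33 in TDonly over ColGFP (adjusted p = 0.000373, edgeR). In DBL over TDonly it was 0.87 with a 95% interval of 0.13 to 1.62 and did not pass (adjusted p = 0.0776, edgeR). Cox6b2 did pass there without TDonly replicate 3, with DESeq2 and with neighbouring core numbers as a block. Among the 6 libraries of the higher core numbers it also passed (adjusted p = 0.0240, edgeR). The call between DBL and ColGFP was lost when DBL replicate 1, DBL replicate 3 or ColGFP replicate 2 was left out, with adjusted p-values of 0.0576, 0.0546 and 0.0652 in that order.

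The widely expressed partners of both isoforms did not pass in any comparison in edgeR. Cox6b1 averaged 48.8 ± 7.06 CPM in DBL, 51.3 ± 6.36 CPM in TDonly and 43.8 ± 2.19 CPM in ColGFP libraries (SD, n = 3 each), and Cox8a averaged 38.3 ± 2.96, 37.8 ± 1.90 and 40.8 ± 4.78 CPM in the same order. For Cox8a the 95% intervals of the log2 fold change were -0.34 to 0.15 in DBL over ColGFP and -0.36 to 0.13 in TDonly over ColGFP. In CPM per kb of transcript, Cox6b2 was therefore 9.56 ± 2.26% of the sum of Cox6b1 and Cox6b2 in DBL libraries. It was 5.06 ± 2.07% in TDonly and 23.5 ± 2.54% in ColGFP libraries. Also per kb, Cox8b was 1.26 ± 0.28% of the sum with Cox8a in DBL, 1.30 ± 1.05% in TDonly and 6.30 ± 1.27% in ColGFP. Both isoforms were the smaller part of their pair in every library.

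**Figure D4:**
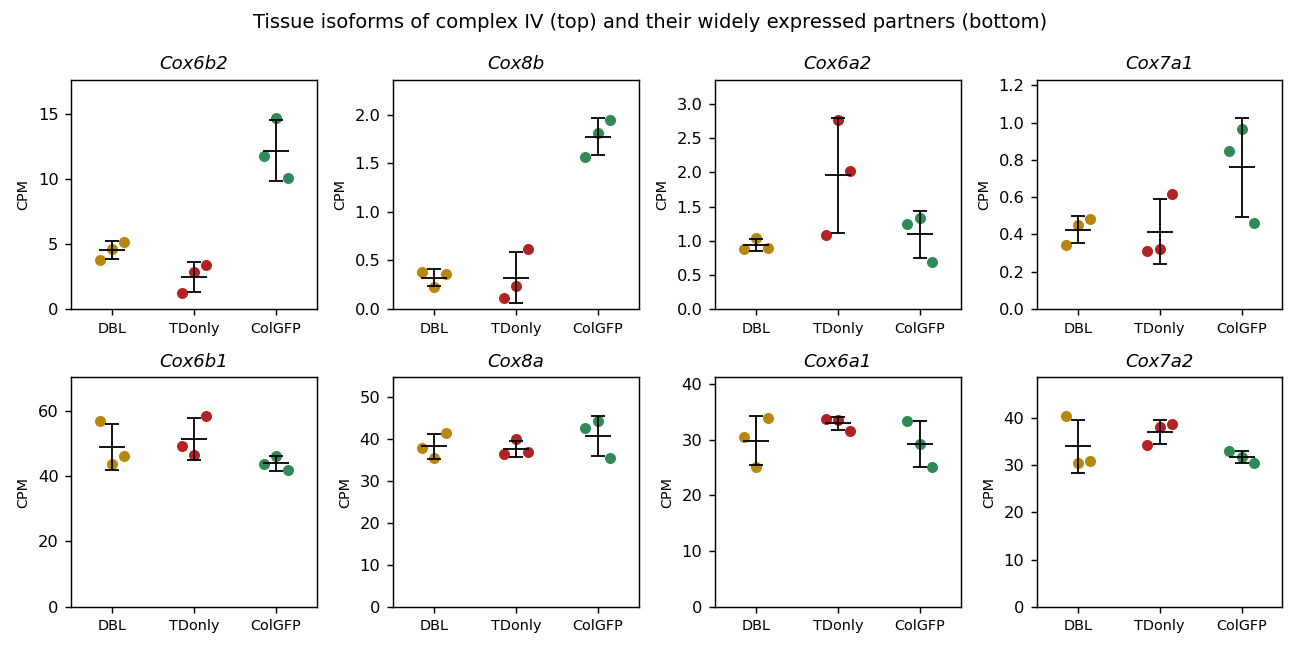
CPM of 4 tissue isoforms of complex IV (top) and of their widely expressed partners (bottom) in DBL, TDonly and ColGFP libraries; points are libraries in replicate order and bars are mean ± SD (n = 3), with axes from 0. Cox6b2 and Cox8b are highest in ColGFP, with 10.1 to 14.7 and 1.57 to 1.94 CPM, and no partner passed in edgeR with all 9 libraries.

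The promoters of these pairs are shown because an isoform that differed stands beside a partner that did not. Each is the RefSeq window of 250 bases before to 50 bases after the gene's start (GRCm38.p6), read on the minus strand of the genome, at chr7:4753045-4753344 for Cox6b2, chr7:30626065-30626364 for Cox6b1, chr7:140900397-140900696 for Cox8b and chr19:7217567-7217866 for Cox8a. Capitals mark matches, on either strand, to CCGGAAG (ETS, the GABP motif) or TATAAA (the TATA box); the NRF1 motif, AAGATGGC (YY1) and TCAAGGTCA (ERR) were searched too.
Cox6b2: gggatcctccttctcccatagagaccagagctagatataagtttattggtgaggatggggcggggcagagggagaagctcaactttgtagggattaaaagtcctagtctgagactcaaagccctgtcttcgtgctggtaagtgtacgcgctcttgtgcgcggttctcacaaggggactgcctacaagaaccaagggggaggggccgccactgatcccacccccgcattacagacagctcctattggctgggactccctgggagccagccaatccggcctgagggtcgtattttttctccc
Cox6b1: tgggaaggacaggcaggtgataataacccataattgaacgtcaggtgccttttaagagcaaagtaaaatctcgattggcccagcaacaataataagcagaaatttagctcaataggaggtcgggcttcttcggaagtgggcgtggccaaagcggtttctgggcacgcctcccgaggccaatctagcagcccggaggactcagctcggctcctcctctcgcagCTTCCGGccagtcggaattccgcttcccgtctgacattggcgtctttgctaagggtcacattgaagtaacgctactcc
Cox8b: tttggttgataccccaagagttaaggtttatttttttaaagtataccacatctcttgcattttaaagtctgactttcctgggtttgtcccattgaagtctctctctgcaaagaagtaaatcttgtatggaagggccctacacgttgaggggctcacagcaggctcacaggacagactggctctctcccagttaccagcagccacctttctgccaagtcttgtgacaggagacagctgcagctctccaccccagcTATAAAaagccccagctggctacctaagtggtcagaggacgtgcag
Cox8a: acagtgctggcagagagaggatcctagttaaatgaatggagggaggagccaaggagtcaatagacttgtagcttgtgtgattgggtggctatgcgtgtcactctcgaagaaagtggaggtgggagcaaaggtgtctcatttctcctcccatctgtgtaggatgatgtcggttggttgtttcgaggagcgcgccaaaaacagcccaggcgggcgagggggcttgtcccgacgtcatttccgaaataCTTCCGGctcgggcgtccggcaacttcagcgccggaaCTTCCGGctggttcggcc
The windows of the partners, Cox6b1 and Cox8a, hold an ETS match and 17 and 19 CpG dinucleotides. The Cox6b2 window holds 10 CpG dinucleotides and none of the motifs, and the Cox8b window holds 2 CpG dinucleotides and a TATA box. Over the whole set, 74 members matched the RefSeq table, with 80 promoters. NRF1 matches stood in 23.8% of them, against 8.51% of the 15100 promoters of genes with a mean count of at least 10 and 4.6% of all 32851 promoters. YY1 matches stood in 15% of member promoters, against 3.76% of expressed and 2.75% of all promoters, and ETS matches in 21.2%, against 14.9% and 8.86%. ERR matches stood in 2.5%, against 0.285% and 0.423%, and TATAAA in 10%, against 7.95% and 13.6%. No member promoter held overlapping matches of different motifs. The median number of CpG dinucleotides was 19.5 in member promoters, 19 in expressed and 7 in all promoters.

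Marker genes of other cell types were summed beside these isoforms. The sum of 10 smooth muscle marker genes was 1024 to 1313 CPM in DBL and 368 to 464 CPM in TDonly, against 2069 to 3480 CPM in ColGFP libraries. The populations stood in the same order as for Cox6b2, but within populations the order of libraries was the same only in TDonly. Of these 10 genes, 5 passed as lower in DBL than in ColGFP and 10 as lower in TDonly than in ColGFP, and none was at 0 in all libraries. The sum of 19 heart muscle marker genes was 60.6 to 65.9 CPM in DBL, 49.0 to 78.9 CPM in TDonly and 60.5 to 137 CPM in ColGFP, and ColGFP replicate 1, with 137 CPM, had the lowest Cox8b level of the 3 ColGFP libraries. The sum of 10 brown fat marker genes was 88.9 to 112 CPM in DBL, 17.6 to 23.9 CPM in TDonly and 13.3 to 53.1 CPM in ColGFP. TDonly replicate 1, with the lowest fibroblast marker sum (1820 CPM, against 6002 and 6335 CPM in the other TDonly libraries), also had the lowest Cox6b2 level. The part of these cells in the isoform levels was not tested.

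The muscle isoforms Cox6a2 and Cox7a1 did not pass in edgeR with all 9 libraries. Cox6a2 had 0.877, 1.04 and 0.888 CPM in DBL, 1.09, 2.76 and 2.02 CPM in TDonly and 1.25, 1.33 and 0.693 CPM in ColGFP libraries. DBL libraries lay below all TDonly libraries, and ColGFP overlapped both. Its log2 fold change was -1.07 in DBL over TDonly (95% interval -1.96 to -0.17, adjusted p = 0.0725, edgeR). DESeq2 passed it there (adjusted p = 0.0497), and the adjusted p among the 6 libraries of the higher core numbers was 0.0193. Without TDonly replicate 1 Cox6a2 passed both as lower in DBL than in TDonly and as higher in TDonly than in ColGFP. Exons of Cox6a2 overlap Itgad on the opposite strand, which was listed at no more than 0.572 CPM. Cox7a1 had 0.343 to 0.485 CPM in DBL, 0.312 to 0.615 CPM in TDonly and 0.462 to 0.968 CPM in ColGFP, with a log2 fold change of -0.82 in DBL over ColGFP (interval -1.83 to 0.19) and -0.86 in TDonly over ColGFP (interval -1.87 to 0.15). Their partners Cox6a1 and Cox7a2, and Cox4i1, Cox7a2l, Cox7b and Ndufa4, also missed the threshold in each comparison with all 9 libraries, but Ndufa4 passed between TDonly and ColGFP without ColGFP replicate 1. Among the 6 libraries of the higher core numbers, Cox7a2 passed in edgeR as lower in DBL than in TDonly (adjusted p = 0.0272) and as higher in TDonly than in ColGFP (adjusted p = 0.0222). Cox7a2l passed there in edgeR as higher than in ColGFP in DBL (adjusted p = 0.0397) and in TDonly (adjusted p = 0.00591). Cox4i1 had a log2 fold change of -0.01 in DBL over ColGFP with an interval of -0.26 to 0.24, and 0.00 in TDonly over ColGFP with an interval of -0.24 to 0.25.

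Among complex I genes, Ndufa8 stood out. Ndufa8, an accessory subunit on the intermembrane space side of the complex, had 27.6, 18.2 and 21.5 CPM in DBL, 28.2, 29.5 and 28.7 CPM in TDonly and 18.9, 16.6 and 17.3 CPM in ColGFP libraries. All TDonly libraries were above all others, and DBL overlapped ColGFP through replicate 3. In TDonly over ColGFP the log2 fold change was 0.71 ± 0.15 (adjusted p = 0.00319, edgeR), and the call held in all 21 alternatives and omissions of a library that were run. In DBL it lay between, at 0.35 over ColGFP (interval 0.02 to 0.68, adjusted p = 0.158, edgeR) and -0.36 over TDonly (interval -0.69 to -0.03, adjusted p = 0.0924, edgeR). Among the 6 libraries of the higher core numbers, the second value was -0.51 with an adjusted p of 0.00171. Ndufa8 lies at chr2:36036326-36049406 on the minus strand, with no exon overlap and no near-identical copy. Its promoter window, chr2:36049289-36049588 on the minus strand, is shown as the promoter of the complex I gene that differed most, with the NRF1 match in capitals.
Ndufa8: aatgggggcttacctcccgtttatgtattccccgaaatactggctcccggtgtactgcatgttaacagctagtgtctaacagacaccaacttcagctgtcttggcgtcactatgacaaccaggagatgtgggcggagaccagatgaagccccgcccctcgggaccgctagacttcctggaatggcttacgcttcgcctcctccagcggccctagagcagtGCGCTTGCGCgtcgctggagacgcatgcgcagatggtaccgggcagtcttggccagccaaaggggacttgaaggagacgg
The match was read from the sequence alone; binding was not measured.

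Of the other 34 tested complex I genes, 1 was higher and 4 were lower in TDonly than in ColGFP. Ndufa3, an accessory subunit, had 15.9 to 19.0 CPM in TDonly and 11.1 to 12.7 CPM in ColGFP, a log2 fold change of 0.53 ± 0.15 (adjusted p = 0.0172, edgeR). Its exons overlap Tfpt on the opposite strand, which did not pass. Ndufb9, Ndufb10 and Ndufb11, accessory subunits of the membrane arm, had log2 fold changes of -0.36, -0.30 and -0.31 with adjusted p-values of 0.0379, 0.0432 and 0.0146 in edgeR. For each of these 4 genes TDonly and ColGFP libraries did not overlap, and each change was less than 1.5-fold. Ndufb11 shares exon sequence with Rbm10 on the opposite strand and has a near-identical copy, so its value is uncertain; Rbm10 itself was higher in TDonly (log2 fold change 0.44, adjusted p = 0.0251, edgeR). The Ndufb9 call was lost in 8 of 21 alternatives, among them without DBL replicate 3, any TDonly library, or ColGFP replicate 1 or 2, and the Ndufb10 call in 13, among them without DBL replicate 3 or 4, any TDonly library, or ColGFP replicate 1 or 3. The calls of Ndufa3 and Ndufb11 were lost in 2 each, Ndufa3 without TDonly replicate 3 or ColGFP replicate 2, Ndufb11 without TDonly replicate 2 or with library totals. Between DBL and either other population no complex I gene passed in edgeR; 5 and 2 had an unadjusted p under 0.05 against ColGFP and TDonly, and DESeq2 passed Ndufv1, the NADH-binding core subunit, as lower in DBL than in ColGFP (edgeR log2 fold change -0.26, interval -0.44 to -0.08, adjusted p = 0.0552).

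**Figure D5:**
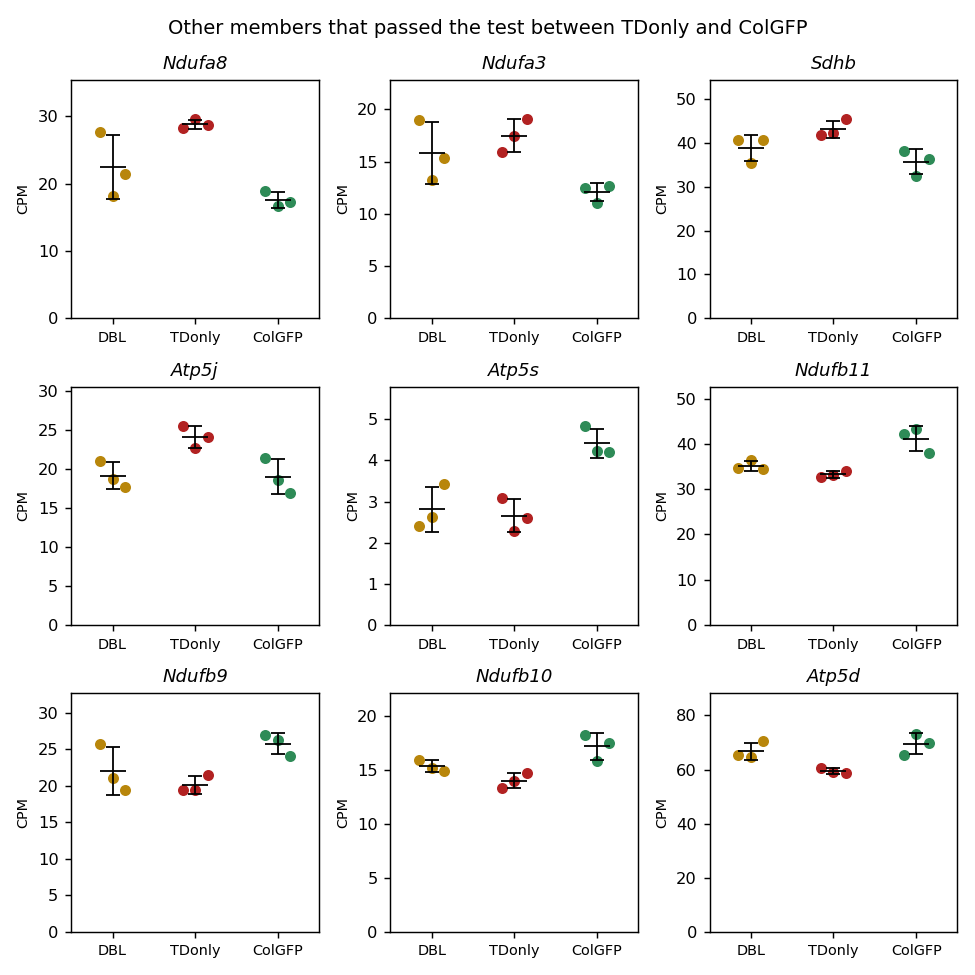
CPM of 9 other members that passed between TDonly and ColGFP, in DBL, TDonly and ColGFP libraries; points are libraries in replicate order and bars are mean ± SD (n = 3), with axes from 0. The 4 higher genes are Ndufa8, Ndufa3, Sdhb and Atp5j; Ndufa8 has 28.2 to 29.5 CPM in TDonly and 16.6 to 18.9 CPM in ColGFP.

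Of the 4 subunits of complex II, 1 passed in edgeR with all 9 libraries. Sdhb, the iron-sulfur subunit, had 40.6, 35.5 and 40.5 CPM in DBL, 41.7, 42.1 and 45.3 CPM in TDonly and 38.1, 32.5 and 36.3 CPM in ColGFP libraries. TDonly libraries lay above the others by a small margin, and the log2 fold change in TDonly over ColGFP was 0.27 ± 0.10 (adjusted p = 0.0455, edgeR). The call was lost in 11 of 21 alternatives, among them the omission of DBL replicate 1 or 4, of any TDonly library, or of ColGFP replicate 2 or 3. Sdha averaged 104 ± 6.62 CPM in DBL, 113 ± 1.19 CPM in TDonly and 117 ± 9.96 CPM in ColGFP libraries. Sdhc and Sdhd, the membrane anchors, had log2 fold changes of -0.26 (interval -0.48 to -0.04, adjusted p = 0.0514, edgeR) and 0.16 (interval -0.12 to 0.44) in TDonly over ColGFP; Sdhc passed without DBL replicate 1 or TDonly replicate 3, and Sdhd among the 6 libraries of the higher core numbers (adjusted p = 0.0120, edgeR).

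With all 9 libraries, complex III had no member that passed in any comparison with edgeR, DESeq2 or limma-voom, and 0, 1 and 1 of its 8 genes had an unadjusted p under 0.05 for DBL over ColGFP, DBL over TDonly and TDonly over ColGFP. All 8 intervals lay within 1.5-fold in each comparison. Uqcrh, which acts with cytochrome c1 in passing electrons to cytochrome c, had 34.1, 31.9 and 29.4 CPM in DBL, 24.9, 25.7 and 27.9 CPM in TDonly and 28.5, 32.7 and 33.7 CPM in ColGFP. TDonly libraries were below all others, with log2 fold changes of 0.28 in DBL over TDonly (adjusted p = 0.0679, edgeR) and -0.27 in TDonly over ColGFP (adjusted p = 0.0562, edgeR). Both passed without ColGFP replicate 1, and the second among the 6 libraries of the higher core numbers (adjusted p = 0.0119, edgeR). Uqcr11, another complex III gene, passed among those 6 as lower in DBL than in TDonly. Its log2 fold change was -0.39 (adjusted p = 0.0366, edgeR).

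Of the 15 genes of complex V, 1 was higher and 1 lower in TDonly than in ColGFP. Atp5j, coupling factor 6 of the peripheral stalk, had 21.0, 18.7 and 17.6 CPM in DBL, 25.4, 22.7 and 24.1 CPM in TDonly and 21.4, 18.6 and 17.0 CPM in ColGFP libraries. TDonly was above both other populations, which overlapped, and the log2 fold change over ColGFP was 0.34 ± 0.12 (adjusted p = 0.0417, edgeR). Its exons overlap Gabpa on the opposite strand, which did not pass. Atp5d, the delta subunit of the central stalk, averaged 66.8 ± 3.12 CPM in DBL, 59.5 ± 0.96 CPM in TDonly and 69.6 ± 3.93 CPM in ColGFP, a log2 fold change of -0.23 ± 0.08 in TDonly over ColGFP (adjusted p = 0.0434, edgeR). The Atp5j call was lost in 9 and the Atp5d call in 12 of 21 alternatives, among them for both the omission of DBL replicate 3 or 4, of any TDonly library or of ColGFP replicate 2 or 3, and for Atp5d also of DBL replicate 1. Atp5b averaged 321 ± 19.9 CPM in DBL, 343 ± 18.9 CPM in TDonly and 317 ± 15.3 CPM in ColGFP, with no comparison passing in all 9 libraries; TDonly passed as higher than ColGFP among the 6 libraries of the higher core numbers (adjusted p = 0.0415, edgeR). The genes Atp5g1, Atp5g2 and Atp5g3 encode the same mature ring subunit. Atp5g1 gave 30.4 ± 1.15% of their summed CPM per kb in DBL, 29.5 ± 0.70% in TDonly and 28.7 ± 2.20% in ColGFP. None of them passed with all 9 libraries in edgeR, and Atp5g2 passed as higher in TDonly than in ColGFP among those 6 (adjusted p = 0.0202, edgeR).

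Of the 7 members outside the groups of complexes I to V, 1 passed in edgeR with all 9 libraries. Atp5s, also called coupling factor B, had 2.40, 2.61 and 3.43 CPM in DBL, 3.08, 2.28 and 2.59 CPM in TDonly and 4.83, 4.23 and 4.20 CPM in ColGFP. It was lower in TDonly than in ColGFP, with a log2 fold change of -0.74 ± 0.22 (adjusted p = 0.0194, edgeR), a call lost without TDonly replicate 2 or 3. In DBL over ColGFP the value was -0.65 (interval -1.13 to -0.17, adjusted p = 0.0775, edgeR), and DESeq2 passed it. Atp5sl had 9.84, 8.52 and 8.97 CPM in DBL, 14.2, 11.5 and 12.2 CPM in TDonly and 10.8, 6.29 and 9.79 CPM in ColGFP. TDonly libraries lay above all others, with a log2 fold change over ColGFP of 0.49 (interval 0.05 to 0.93, adjusted p = 0.0677, edgeR). DESeq2 passed Atp5sl as higher in TDonly than in ColGFP, as did edgeR among the 6 libraries of the higher core numbers (adjusted p = 0.0295). No complex I assembly factor passed in edgeR or limma-voom with all 9 libraries. Between TDonly and ColGFP, 1 had an unadjusted p under 0.05, and DESeq2 passed Ndufaf1 there (edgeR log2 fold change -0.47, interval -0.88 to -0.07). Among the 6 libraries of the higher core numbers, edgeR also passed Ndufaf1 as lower in TDonly than in ColGFP. Its log2 fold change was -0.60 (adjusted p = 0.0217, edgeR).

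The isoforms left out of the set passed in several comparisons. Ndufa4l2, a paralog of Ndufa4 induced by hypoxia in other cells, had 8.24, 13.2 and 12.9 CPM in DBL, 3.31, 3.16 and 3.78 CPM in TDonly and 4.02, 6.35 and 6.05 CPM in ColGFP libraries. The populations did not overlap, with DBL highest. The log2 fold change was 1.74 ± 0.24 in DBL over TDonly (adjusted p = 0.000599, edgeR) and 1.07 ± 0.24 in DBL over ColGFP (adjusted p = 0.0146, edgeR), the second lost without DBL replicate 3 or 4. In TDonly over ColGFP it was -0.68 ± 0.24 (adjusted p = 0.0462, edgeR), lost without DBL replicate 3 or 4, any TDonly library, or ColGFP replicate 2 or 3. In CPM per kb, Ndufa4l2 was 27.5 ± 5.43% of the sum with Ndufa4 in DBL, 9.14 ± 0.91% in TDonly and 15.8 ± 5.37% in ColGFP. Its exons overlap Shmt2 on the opposite strand, which had 28.3 to 30.7 CPM in DBL, 23.1 to 24.6 CPM in TDonly and 26.3 to 33.2 CPM in ColGFP. Shmt2 itself passed as lower in TDonly than in ColGFP (log2 fold change -0.35, adjusted p = 0.0220, edgeR). Cox4i2, known as the lung isoform of Cox4, had 3.24 to 5.01 CPM in DBL, 4.36 to 5.45 CPM in TDonly and 1.66 to 3.58 CPM in ColGFP. It was higher in TDonly than in ColGFP, with a log2 fold change of 0.93 ± 0.29 (adjusted p = 0.0267, edgeR), a call lost without TDonly replicate 2 or 3 or ColGFP replicate 2 or 3. In DBL over ColGFP it passed only without ColGFP replicate 1 or among the 6 libraries of the higher core numbers.

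Genes that feed the respiratory chain were described from lists of genes for comparison. Between TDonly and ColGFP, 21.6% of all tested genes passed as higher and 24% as lower in TDonly, and the counts of each list are to be read against these shares. Of 18 tested genes of fatty acid oxidation, 8 passed between TDonly and ColGFP, each lower in TDonly, with a list median of -0.29 on the log2 scale against 0.02 over all genes. Cpt1c, a carnitine palmitoyltransferase isoform known from brain, had a log2 fold change of -2.80 ± 0.21, Hadh, a dehydrogenase of the beta-oxidation spiral, -1.23 ± 0.12 and Acadvl, the very-long-chain acyl-CoA dehydrogenase, -0.61 ± 0.08. Of 19 genes of pyruvate dehydrogenase and the TCA cycle, 2 passed in that comparison, Pdha1 at -0.81 ± 0.09 and Sucla2 at -0.34 ± 0.12. Of 19 glycolysis genes, 4 were higher and 3 lower in TDonly, with Hk1 at 1.15 ± 0.14 and Pfkm at -1.01 ± 0.10. Among 25 respiratory chain assembly factors, 4 were higher and 2 lower in TDonly, led by Atpaf1, which assembles the F1 part of the ATP synthase, at 0.80 ± 0.16; Cox17, the copper chaperone of complex IV, was lower in DBL than in ColGFP at -1.04 ± 0.24 (adjusted p = 0.0170, edgeR).

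Of 19 tested regulators of mitochondrial biogenesis, 3 were higher and 1 lower in TDonly than in ColGFP, against the same 21.6% and 24% of all genes. Ppargc1a, the coactivator PGC-1alpha, averaged 3.19 CPM in DBL, 4.95 CPM in TDonly and 6.20 CPM in ColGFP, a log2 fold change of -0.96 ± 0.19 in DBL over ColGFP (adjusted p = 0.00811, edgeR) and -0.63 in DBL over TDonly (adjusted p = 0.0305, edgeR). Gabpb1, a subunit of GABP, was higher in TDonly than in ColGFP at 1.00 ± 0.13, and Nrf1 at 0.33 ± 0.11. Esrrg, an estrogen-related receptor, was higher in DBL than in ColGFP at 1.70 ± 0.25. Of 24 import and carrier genes, 2 were higher and 2 lower in TDonly than in ColGFP, against those shares, with Ucp2, an uncoupling protein homolog, at 2.30 ± 0.25 and Slc25a4, the ADP/ATP carrier of muscle, at -0.72 ± 0.09. The endothelial, fibroblast and epithelial markers given above also differed between TDonly and ColGFP. Their part in these lists was not tested.

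The replicate 1 libraries differed from the others within populations. In DBL, 68 of 85 members were higher in replicate 1 than in the mean of the other libraries, with a median log2 ratio of 0.18; in TDonly 30 of 85 were (median -0.05), and in ColGFP 62 of 85 (median 0.12). Over all tested genes these medians were -0.00, 0.00 and -0.00. Within the 6 libraries of the higher core numbers, 1 member was higher and 4 were lower in DBL than in ColGFP, against 28.9% of all genes (16.3% higher, 12.6% lower); 2 and 6 in DBL against TDonly (43.1%; 23.6% higher, 19.4% lower); and 14 and 11 in TDonly against ColGFP (56.6%; 26.8% higher, 29.8% lower). Cox6b2 and Cox8b kept their direction there, at -1.32 and -2.63 in DBL over ColGFP and -2.01 and -2.17 in TDonly over ColGFP. In the replicate 1 libraries alone, with 1 library per population, no test was run and 0.5 CPM was added to each level. The log2 ratios of Cox6b2 and Cox8b were then -1.51 and -1.23 in DBL over ColGFP and -2.84 and -1.74 in TDonly over ColGFP. That of Ndufa8 was 0.57 in TDonly over ColGFP. The added 0.5 CPM pulls ratios of low levels toward 0. The Cox8b ratios therefore understate its difference and cannot be set beside the fitted values. The groups of core numbers each held libraries of all 3 populations.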

How the data were processed

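RNA-seq was analysed in 9 libraries of 3 sorted populations. The authors deposited raw read counts per gene symbol; per the submitters' processing notes the tools were cutadapt, TopHat and HTSeq with the mm10 build, without versions, and a ribogone step removed ribosomal RNA, per the series' design text. The table's other 3 columns could be tied to no sample and were left out. Counts were filtered with filterByExpr (minimum count 10; 15550 genes left) and fitted in edgeR 4.0.16 (limma 3.58.1, R 4.3.3) as one quasi-likelihood model of all 9 libraries with TMM factors and a mean per population. Tests of the 3 contrasts were two-sided, and p-values were adjusted by Benjamini-Hochberg over all genes, with a threshold of 0.05. The SE was taken as the absolute log2 fold change over the square root of F, and intervals are 95%. Log2 ratios within populations, and between populations in the replicate 1 libraries alone, used a pseudocount of 0.5 CPM. The fits were tested on simulated data.

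Lengths, positions and exon overlaps came from GENCODE M21 (GRCm38), which matched all 87 members. Promoters came from the RefSeq table. Named genes were the members that passed (up to 4 per complex and direction; 1 that met this rule is not reported here), the isoforms with their partners, the highest gene of each complex, complex II, the members removed by the filter and up to 3 genes per direction of a described list; Ndufv1, Ndufaf1 and overlapping genes were named after their values were seen. The members, lists and tests were chosen with earlier results of these data known. Alternatives were other scalings, DESeq2 1.42.0, limma-voom, other filters, blocks, subsets of libraries and leaving out each library. Depth sets the precision of genes with few reads; the spread between replicates was used in place of intervals for single libraries. Ribosomal protein genes are not analysed here.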

Additional observations from a re-analysis of the deposited data

How the results depend on the processing

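No single-gene result that passed changed sign under any alternative. The split of members higher and lower between TDonly and ColGFP turned to 6 and 3 with library totals, and medians near 0 changed sign. For members higher and lower, only the 6 libraries of the higher core numbers gave 1 and 4 in DBL against ColGFP, 2 and 6 in DBL against TDonly and 14 and 11 in TDonly against ColGFP. For DBL against ColGFP the number lower was 4 with DESeq2 and 1 with a filter of 10 CPM in 3 libraries. For DBL against TDonly the number higher was 1 with DESeq2, with neighbouring core numbers as a block and without the 20 most abundant genes. The number lower there was 2 with upper-quartile factors, DESeq2 or that block. It was 1 with library totals, the 10 CPM filter or only the 2 populations compared. For TDonly against ColGFP the number higher was 2 without a filter or with only the 2 populations, and 7 with the core number block; the number lower was 3 with library totals and 5 with only the 2 populations. Library totals moved the members' median log2 fold change to -0.12 in DBL over TDonly and 0.16 in TDonly over ColGFP, with shifts of -0.09 and 0.15 in the median of all genes. The cause of the other differences was not tested; the 6-library fit uses fewer samples. The number of members called with DESeq2 size factors differed from the main count by no more than 1 in each direction.

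With the replicate number as a block, no member was higher in DBL against ColGFP and 0 were lower, so Cox6b2 and Cox8b missed the threshold there (adjusted p = 0.0602 and 0.0779, edgeR); in DBL against TDonly the numbers were 0 and 0, and in TDonly against ColGFP 4 and 4. Members with an unadjusted p under 0.05 then numbered 4, 3 and 17. Same-numbered TDonly and ColGFP libraries correlated at 0.045 to 0.102 in their deviations from group means, and 5 of 6 correlated best with their own number, a hint from the data and not from the design; DBL shares only numbers 1 and 3 with both, and its same-numbered libraries correlated at 0.527 and 0.232 with TDonly. The numbers were taken as names, not pairs. Within consecutive core numbers, DBL and TDonly libraries correlated at 0.527, 0.306 and 0.340, DBL and ColGFP at 0.0926, 0.0143 and 0.122, and TDonly and ColGFP at 0.102, 0.045 and 0.0792.

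Leaving out each library in turn gave 0 members higher and 0 to 2 lower in DBL against ColGFP, 0 to 1 higher and 0 to 2 lower in DBL against TDonly, and 1 to 6 higher and 2 to 9 lower in TDonly against ColGFP. The median log2 fold change ranged from -0.07 to 0.06, -0.10 to 0.04 and -0.04 to 0.03 in the same order. Of 18 single-gene results that passed, 4 passed in every alternative in which the gene was tested: Cox6b2, Cox8b and Ndufa8 in TDonly over ColGFP and Ndufa4l2 in DBL over TDonly. Low counts limit Cox8b, Cox6a2 and Cox7a1.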
